A study of Mus musculus with 9 samples.

Results

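The immediate early response genes are the group described here: 10 of the 27719 genes and loci in the count table of mouse colon. They were taken by name, in the knowledge of earlier results of these data: the AP-1 genes *Fos*, *Fosb*, *Fosl1*, *Jun* and *Junb*, the zinc finger factor *Egr1*, the stress factor *Atf3*, and *Ier3*, *Dusp1* and *Zfp36*. Of these 10 genes, 8 passed the filter on low counts and were tested among 12566 genes. *Fosb* (40 counts over all mice) and *Fosl1* (74 counts) did not pass and are given by their counts.

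Bulk colon RNA was read as full-length cDNA on a Nanopore sequencer in 9 libraries from C57BL/6J mice, 3 mice in each of 3 groups. The DSS group drank 2.5% dextran sodium sulfate, a polymer that injures the colon lining, for 7 days, and the control group drank distilled water. The DSS + EA group drank the same DSS and received electroacupuncture (EA) at the ST36 point of both hind limbs in 5 daily sessions of 30 min each (2 Hz, 0.2 mA). The study states that these sessions began after 5 days of colitis modeling, and that mice were killed once the 5 days of EA were over. Control and DSS mice were restrained for 30 min in the frame without EA, so all 3 groups were handled. The age of the mice and the time from the last session to sampling are not given in the sources used here.

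Library totals ran from 2627695 to 4235576 counts. The largest library was DSS mouse 2, which also had the highest CPM of its group in 8 of the 10 genes. CPM here are counts scaled to a common library total after TMM scaling, which adjusts totals for differences in composition. All 8 epithelial markers, *Cdx2* of the intestine among them, had counts in each group. Their summed level was 4531 to 5281 CPM in control mice, 725 to 3698 CPM in DSS mice and 3821 to 4587 CPM in DSS + EA mice. Acinar pancreas markers (8 of 9 in the table) summed to 431, 23383 and 10559 CPM in DSS + EA mice 1 to 3, against at most 262 CPM in the other mice.

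Immediate early genes are switched on within minutes of a stimulus, by factors that are already in the cell, without new protein being made first. Growth factors, cytokines and cell stress act through MAP kinases, serum response factor, CREB and NF-kappaB on their short promoters. The Fos and Jun proteins pair as the AP-1 factor. *Dusp1*, *Ier3* and *Zfp36* encode products that act back on the response. They are a phosphatase of MAP kinases, a regulator of survival and ERK signaling, and tristetraprolin, which binds AU-rich elements of mRNAs and speeds their decay. Many of the mRNAs are themselves short-lived. In the gut these genes are known to respond to injury, microbial products and tissue handling.

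The genes are compact. Their longest coding transcripts had a median of 3 exons and 2049 bases, against 9 exons and 3008 bases over 11155 coding genes tested. The nonamer TTATTTATT, a core form of the AU-rich element, was found in the 3′ UTR of *Fos*, *Dusp1* and *Zfp36*, 4 sites in 3 of the 10 genes, and in 7.59% of the coding genes tested. Among coding genes with a 3′ UTR within the range of these genes (485 to 2145 bases), the share was 6.28%. The sites are printed because *Zfp36* encodes a protein that binds this element, and they are read on the gene strand (GRCm38, GENCODE M21) with the nonamer in capitals.
Fos, 3′ UTR, chr12:85477105-85477129, plus strand: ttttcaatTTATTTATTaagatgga
Dusp1, 3′ UTR, site 1, chr17:26506161-26506185, minus strand: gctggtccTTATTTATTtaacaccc
Dusp1, 3′ UTR, site 2, chr17:26505872-26505896, minus strand: ttttacctTTATTTATTtttgtgta
Zfp36, 3′ UTR, chr7:28376953-28376977, minus strand: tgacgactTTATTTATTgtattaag

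RefSeq promoters (GRCm38) were at hand for 8 of the 10 genes, all except *Fosl1* and *Egr1*. The 250 bases before the RefSeq start were searched on both strands for the cAMP response element TGACGTCA, its core TGACG, which the full element contains, the AP-1 site TGANTCA, the Egr site GCGGGGGCG, and the CArG and kappaB motifs by name. TATAAA was searched on the gene strand only. The core was present in *Fos*, *Fosb*, *Junb*, *Atf3* and *Dusp1*, and in 17.8% of 32851 promoters. The full element was in *Dusp1* alone of the 8 (1.55% of promoters), the kappaB motif in *Fos*, *Fosb* and *Ier3* (3.90%), the Egr site in *Fosb* and *Zfp36* (2.57%), the CArG box in *Zfp36* (1.47%) and TATAAA in *Fos* (7.59%). None of the 8 windows held TGANTCA, which 6.75% of promoters did. The core of *Atf3* (-7 to -3) lies in bases that GENCODE places in an exon of that gene. The window of *Zfp36* already meets a GENCODE exon at -160, upstream of its matches (-105 to -97 and -58 to -49). Matches are letters in a window and were not tested for binding. The windows of *Fos*, which was not called in any comparison, and of *Junb*, *Ier3* and *Dusp1*, which were, are printed from position -160 up to the RefSeq start, or to the outermost exon in GENCODE where that lies further upstream. Capitals mark the motifs.
Fos, chr12:85473730-85473889, plus strand: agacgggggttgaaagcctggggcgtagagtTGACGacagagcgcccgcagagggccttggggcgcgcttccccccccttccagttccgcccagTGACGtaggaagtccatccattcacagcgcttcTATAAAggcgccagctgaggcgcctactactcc
Junb, chr8:84978749-84978908, minus strand: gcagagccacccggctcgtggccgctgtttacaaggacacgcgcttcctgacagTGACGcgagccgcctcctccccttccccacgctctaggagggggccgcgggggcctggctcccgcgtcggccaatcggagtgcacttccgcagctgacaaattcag
Ier3, chr17:35821553-35821683, plus strand: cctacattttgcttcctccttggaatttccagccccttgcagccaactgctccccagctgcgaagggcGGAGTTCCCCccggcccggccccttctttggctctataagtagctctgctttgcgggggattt
Dusp1, chr17:26508520-26508632, minus strand: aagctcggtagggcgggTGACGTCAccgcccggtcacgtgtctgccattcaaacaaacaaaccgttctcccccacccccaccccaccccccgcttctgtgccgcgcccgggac
The capitals in *Fos* are 2 cores and TATAAA, that in *Junb* is a core, that in *Ier3* is the kappaB motif and that in *Dusp1* is the full element.

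Compared with the control group, *Junb*, *Egr1*, *Ier3*, *Dusp1* and *Zfp36* were higher in the DSS group, while *Fos*, *Jun* and *Atf3* were not called. A gene was called at a Benjamini-Hochberg adjusted p under 0.05 in edgeR's quasi-likelihood test over all 12566 genes. The 5 genes called higher among 8 tested stand against 21.5% of all genes tested. None of the 8 was called lower, against 19.5% of all genes, none was lower at an unadjusted p under 0.05 and DESeq2 called 0 of them lower. The control and DSS mice did not overlap, with DSS higher, in the same 5 genes, against 26.2% of all genes. *Egr1*, *Ier3* and *Dusp1* also met the thresholds for a DEG (log2 fold change beyond 2.5 and unadjusted P under 0.01), against 6.62% of genes that were DEGs in this direction.

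Compared with the DSS group, *Junb*, *Egr1*, *Ier3*, *Dusp1* and *Zfp36* were lower in the DSS + EA group, 5 of 8 against 18.3% of all genes tested. Without DSS + EA mouse 2 the number was 3, since *Junb* and *Dusp1* were then not called. None was called higher, against 17.2%, with 0 at an unadjusted p under 0.05 and 0 in DESeq2. The groups did not overlap, with DSS + EA lower, in *Egr1*, *Ier3*, *Dusp1* and *Zfp36*, against 23.3% of all genes. *Egr1* and *Ier3* were DEGs, against 3.50% of genes lower by these thresholds. The 3 DSS mice enter both of these comparisons, so the fall in one and the rise in the other are not independent of each other. Compared with the control group, *Ier3* alone of the 8 was called higher in the DSS + EA group, against 3.00% of all genes. At an unadjusted p under 0.05 in edgeR 3 of the 8 were higher, with *Zfp36* and *Dusp1* added, and 0 were lower. The mice of these groups did not overlap in *Ier3* and *Zfp36*, against 18.0% of genes higher in this way. In bulk tissue, fewer cells of a type and less RNA per cell cannot be told apart.

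**Figure D1:**
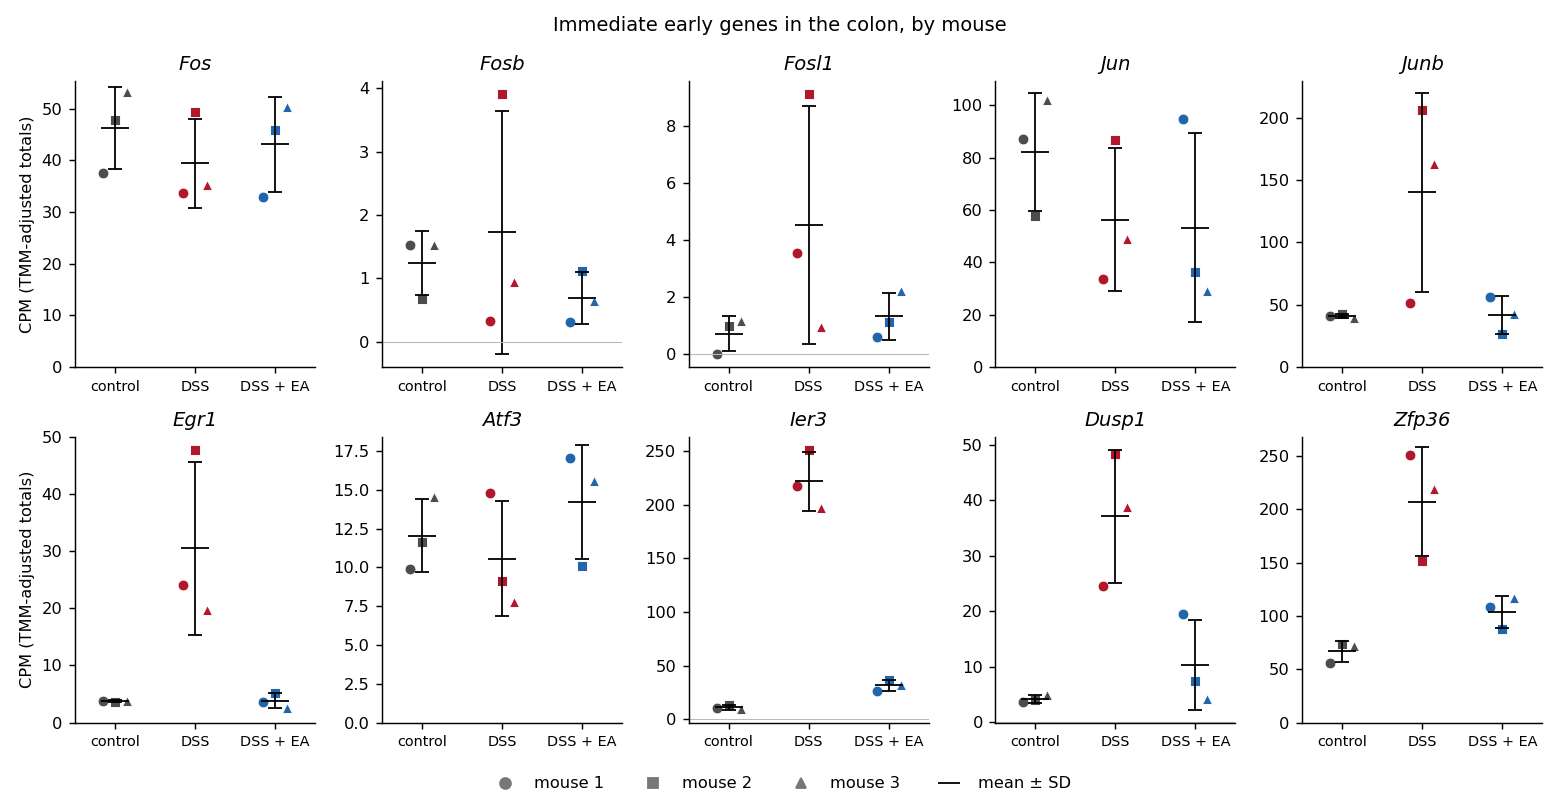
CPM (y axis, linear, 1 scale per gene) of the 10 genes in each mouse (symbols) by group (x axis: control, DSS, DSS + EA), with the mean and SD of 3 mice in black. DSS mice lie above all control mice in *Junb*, *Egr1*, *Ier3*, *Dusp1* and *Zfp36*, and the groups overlap in *Fos*, *Jun* and *Atf3*.

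*Fos*, which encodes the founding Fos subunit of AP-1, had 148, 144 and 139 counts in control mice 1 to 3, which is 37.6, 47.9 and 53.3 CPM. DSS mice had 105, 227 and 113 counts, or 33.8, 49.3 and 35.3 CPM. DSS + EA mice had 108, 123 and 159 counts, or 32.9, 45.9 and 50.4 CPM. The 3 groups covered nearly the same range. The log2 fold change was -0.22 with DSS against control (SE 0.24, 95% interval -0.76 to 0.32, edgeR adjusted p = 0.487) and 0.12 with DSS + EA against DSS (SE 0.24, interval -0.42 to 0.66, edgeR adjusted p = 0.716). These intervals leave room for a change of either sign, and neither reaches a log2 fold change of 1.

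Among the other Fos genes, *Fosb* encodes a second Fos subunit and *Fosl1* encodes Fra-1, a subunit known from migrating and injured epithelium. *Fosb* had 6, 2 and 4 counts in control mice, 1, 18 and 3 in DSS mice and 1, 3 and 2 in DSS + EA mice. Most of its DSS counts came from mouse 2. *Fosl1* had 0, 3 and 3 counts in control mice, 11, 42 and 3 in DSS mice, and 2, 3 and 7 in DSS + EA mice. The 0 of control mouse 1 allows a level of up to 0.762 CPM, by counting error alone. DSS mice 1 and 2 were above all other mice, and DSS mouse 3 was not. In a fit without the filter, *Fosl1* gave a log2 fold change of 2.74 for DSS against control (SE 0.88, edgeR adjusted p = 0.0317) and -1.72 with DSS + EA against DSS (SE 0.79, edgeR adjusted p = 0.132). The same fit gave *Fosb* 0.50 (SE 0.76, edgeR adjusted p = 0.649) and -1.34 (SE 0.85, edgeR adjusted p = 0.279).

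*Jun*, which encodes the main partner of Fos, had 343, 173 and 266 counts in control mice (87.2, 57.5 and 102 CPM) and 104, 399 and 156 in DSS mice (33.5, 86.7 and 48.7 CPM). DSS + EA mice had 311, 97 and 91 counts (94.7, 36.2 and 28.9 CPM). Mice of the same group differed widely, most of all with DSS + EA, and the groups overlapped. The log2 fold change was -0.54 with DSS (SE 0.47, 95% interval -1.60 to 0.52, edgeR adjusted p = 0.386) and -0.08 with DSS + EA against DSS (SE 0.48, interval -1.14 to 0.98, edgeR adjusted p = 0.909). An antisense gene, *Junos*, overlaps *Jun*, and whether counting used strand is not given in the sources used here. Genes on the opposite strand also overlap *Junb* (*Prdx2*), *Zfp36* (*Gm44710*), *Fosl1* (*Ccdc85b*), *Atf3* (*Gm24748*) and *Dusp1*, so the same limit holds for them.

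*Junb* encodes a Jun subunit that can restrain or replace Jun in AP-1. Control mice had 161, 129 and 103 counts, a narrow 40.9, 42.9 and 39.5 CPM. DSS mice had 160, 949 and 522 counts, or 51.5, 206 and 163 CPM, and DSS + EA mice had 184, 70 and 135 counts, or 56.0, 26.1 and 42.8 CPM. All DSS mice were above the control mice, DSS mouse 1 by a small margin, and DSS mouse 1 was below DSS + EA mouse 1. *Junb* was 3.41-fold higher with DSS (log2 fold change 1.77, SE 0.45, edgeR adjusted p = 0.0112) and 3.36-fold lower with DSS + EA than with DSS (log2 fold change -1.75, SE 0.45, edgeR adjusted p = 0.0143). Without DSS mouse 2 the latter was -1.38 (edgeR adjusted p = 0.0527), and without DSS + EA mouse 2 it was -1.47 (edgeR adjusted p = 0.0548). The DSS + EA and control groups differed by 0.02 (95% interval -0.97 to 1.01, edgeR adjusted p = 0.991).

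The counts of *Junb* and *Jun* in the same mouse give a measure that does not depend on depth. *Junb* had 0.469, 0.746 and 0.387 counts per *Jun* count in control mice 1 to 3, and 1.54, 2.38 and 3.35 in DSS mice. DSS + EA mice had 0.592, 0.722 and 1.48. Each DSS mouse was above each mouse of the other groups in this ratio. Among the summed counts of 7 AP-1 subunit genes (the 5 above with *Fosl2* and *Jund*), *Junb* held 19.1% ± 2.65 in control mice, 44.0% ± 13.7 in DSS mice and 24.9% ± 5.14 in DSS + EA mice (mean ± SD, n = 3). *Jun* held 37.5% ± 7.20, 18.5% ± 1.34 and 30.4% ± 13.1. The shares of a mouse add to a whole, so a larger *Junb* share by itself lowers that of *Jun*, which was not called. Shares of counts may depend on transcript length, so they are read between groups and not between genes. Transcript forms and RNA quality were not compared between the groups. *Fosl1* held 0.335% ± 0.290, 1.46% ± 0.984 and 0.872% ± 0.610. With 3 mice against 3 the smallest two-sided exact permutation p is 0.1, which cannot pass 0.05, and ratios and shares are given as a description.

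**Figure D2:**
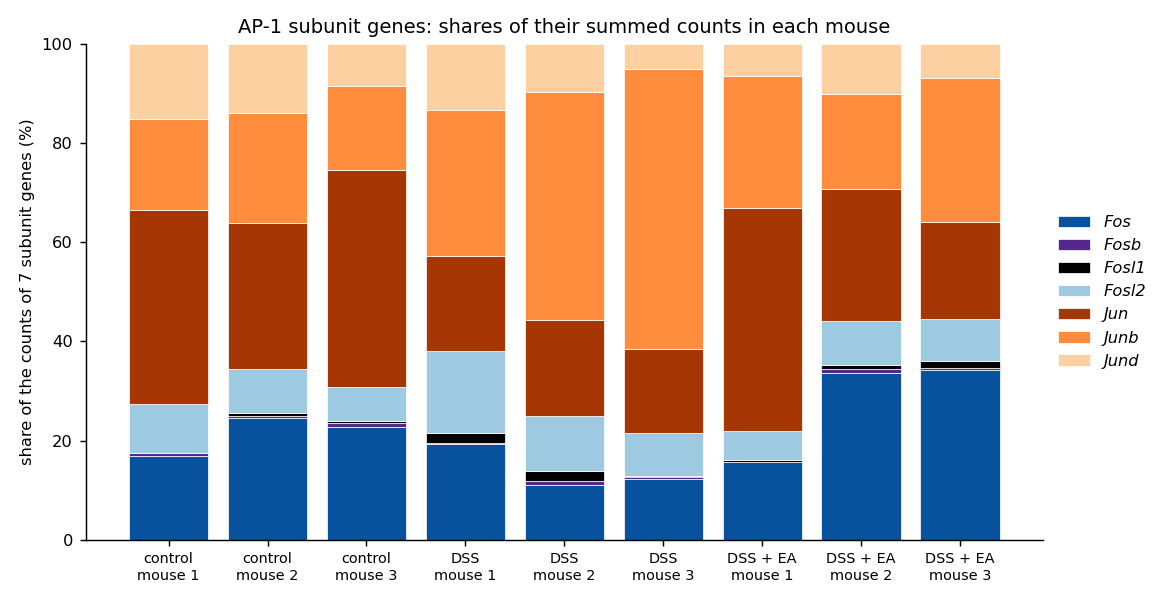
Share (y axis, percent) of each of 7 AP-1 subunit genes in their summed counts, 1 stacked bar per mouse (x axis). The *Junb* segment is larger in each DSS mouse (29.5 to 56.6%) than in the control mice (16.9 to 22.1%), and the *Jun* segment is smaller (16.9 to 19.3% against 29.6 to 43.7%). The segments of a bar add to a whole, so a larger *Junb* segment leaves less for *Jun*.

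*Egr1* encodes a zinc finger factor that is a standard readout of ERK and serum response signaling. It had 15, 11 and 10 counts in control mice, which is 3.81, 3.66 and 3.83 CPM. DSS mice had 75, 220 and 63 counts, or 24.1, 47.8 and 19.7 CPM, and DSS + EA mice had 12, 14 and 8 counts, or 3.65, 5.23 and 2.54 CPM. The DSS mice stood apart from both other groups, whose ranges overlapped. *Egr1* was 8.08-fold higher with DSS than in control (log2 fold change 3.01, SE 0.40, 95% interval 2.13 to 3.90, edgeR adjusted p = 0.000429). It was also 8.08-fold lower with DSS + EA than with DSS (log2 fold change -3.02, SE 0.40, interval -3.91 to -2.12, edgeR adjusted p = 0.000802). Between DSS + EA and control the 95% interval of the log2 difference was -0.76 to 0.76 (edgeR adjusted p = 1). *Egr1* lies on chromosome 18 between 34859823 and 34864984, plus strand.

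*Egr1* and *Fos* share many of their known inducers, and their counts parted in these mice. *Egr1* had 0.0719 to 0.101 counts per *Fos* count in control mice, 0.558 to 0.969 in DSS mice and 0.0503 to 0.114 in DSS + EA mice. The DSS mice did not overlap with either group. 

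*Atf3*, a stress-induced factor of the ATF and CREB family, had 39, 35 and 38 counts in control mice (9.91, 11.6 and 14.6 CPM). It had 46, 42 and 25 counts in DSS mice (14.8, 9.13 and 7.80 CPM) and 56, 27 and 49 in DSS + EA mice (17.0, 10.1 and 15.5 CPM). The groups overlapped. The log2 fold change was -0.18 with DSS (SE 0.32, 95% interval -0.89 to 0.52, edgeR adjusted p = 0.670) and 0.44 with DSS + EA against DSS (SE 0.31, interval -0.26 to 1.14, edgeR adjusted p = 0.296).

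*Ier3* was the member with the largest difference between DSS and control mice. It encodes IEX-1, a small protein induced by NF-kappaB that acts on cell survival and on ERK signaling. Control mice had 42, 41 and 25 counts, or 10.7, 13.6 and 9.58 CPM. DSS mice had 674, 1156 and 632 counts, or 217, 251 and 197 CPM. DSS + EA mice had 88, 99 and 101 counts, or 26.8, 37.0 and 32.0 CPM. The 3 groups were fully separate, in the order control, DSS + EA, DSS. *Ier3* was 19.6-fold higher with DSS (log2 fold change 4.29, SE 0.23, 95% interval 3.78 to 4.80, edgeR adjusted p = 6.96e-06) and 6.95-fold lower with DSS + EA than with DSS (log2 fold change -2.80, SE 0.21, interval -3.27 to -2.33, edgeR adjusted p = 0.000132). It remained 2.82-fold higher with DSS + EA than in control (log2 fold change 1.49, SE 0.22, edgeR adjusted p = 0.00665). Without control mouse 1 the last value was 1.45 (edgeR adjusted p = 0.0506).

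*Ier3* counts per *Fos* count, in the same mouse, were 0.180 to 0.285 in control mice, 5.09 to 6.42 in DSS mice and 0.635 to 0.815 in DSS + EA mice. This ratio kept the same order of groups, with no overlap. The kappaB motif of its promoter lies at positions -92 to -83 in the sequence printed above, and *Fos* holds a match at -214 to -205, upstream of the bases printed.

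*Dusp1* encodes a nuclear phosphatase that switches off p38, JNK and ERK. It had 14, 12 and 13 counts in control mice (3.56, 3.99 and 4.98 CPM) and 76, 222 and 124 in DSS mice (24.4, 48.2 and 38.7 CPM). DSS + EA mice had 64, 20 and 13 counts (19.5, 7.47 and 4.12 CPM). DSS + EA mouse 1 was close to the lowest DSS mouse, and mouse 3 was within the control range. *Dusp1* was 8.94-fold higher with DSS (log2 fold change 3.16, SE 0.52, edgeR adjusted p = 0.00135) and 3.56-fold lower with DSS + EA than with DSS (log2 fold change -1.83, SE 0.48, edgeR adjusted p = 0.0153). Without DSS + EA mouse 1 the latter was -2.70 (edgeR adjusted p = 0.00351), and without DSS + EA mouse 2 it was -1.61 (edgeR adjusted p = 0.0578). Its log2 fold change with DSS + EA against control was 1.33 (95% interval 0.13 to 2.53, edgeR adjusted p = 0.244), and 0.44 without DSS + EA mouse 1 (edgeR adjusted p = 0.660). *Ergic1* and *Gm8225* overlap *Dusp1* on the opposite strand, and *AC122252.4* and *AC122252.1* overlap it on the same strand.

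*Zfp36*, the gene of tristetraprolin, had 219, 221 and 187 counts in control mice, or 55.7, 73.5 and 71.7 CPM. DSS mice had 782, 698 and 701 counts, or 252, 152 and 219 CPM, and DSS + EA mice had 356, 234 and 367 counts, or 108, 87.4 and 116 CPM. The 3 groups were separate, and in this gene DSS mouse 2 was the lowest of its group. *Zfp36* was 3.10-fold higher with DSS (log2 fold change 1.63, SE 0.23, edgeR adjusted p = 0.00061) and 1.99-fold lower with DSS + EA than with DSS (log2 fold change -0.99, SE 0.23, edgeR adjusted p = 0.00889). With DSS + EA against control it had a log2 fold change of 0.64 (SE 0.23, edgeR adjusted p = 0.185), which passed when only these 2 groups were fitted (log2 fold change 0.65, edgeR adjusted p = 0.0423).

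**Figure D3:**
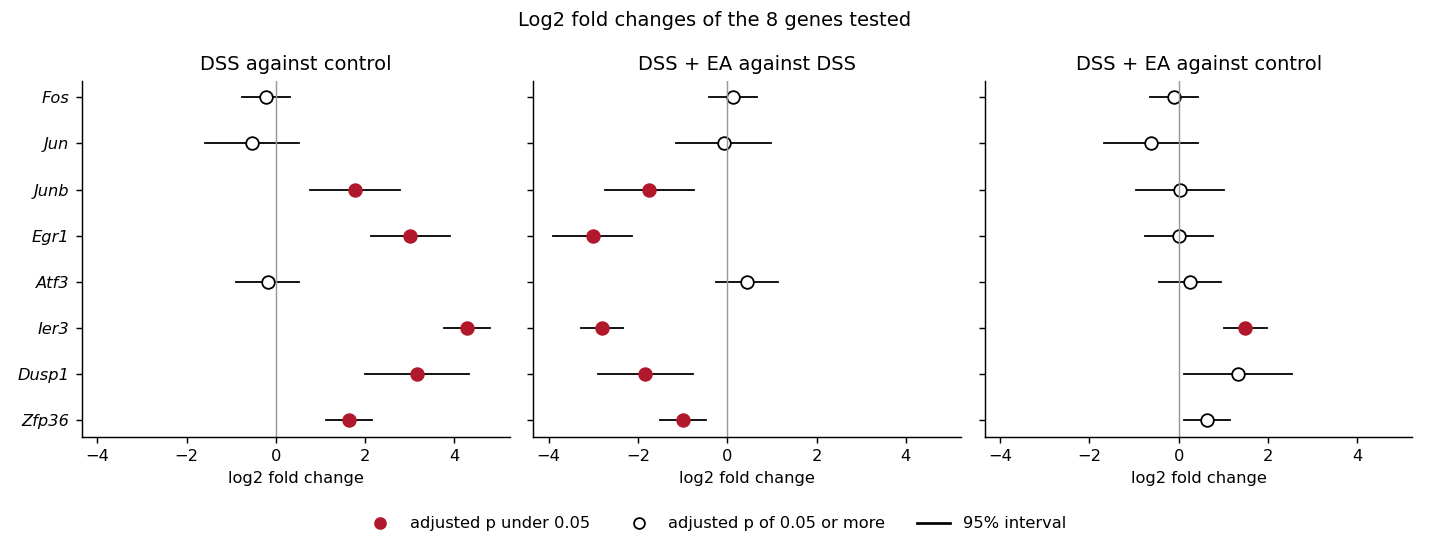
Log2 fold changes (x axis) of the 8 genes tested (y axis) in the 3 comparisons, with 95% intervals as lines; filled points had an edgeR adjusted p under 0.05. *Fos*, *Jun* and *Atf3* have open points in each panel, and only *Ier3* is filled for DSS + EA against control.

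Other genes with an immediate early response, listed by name (47 genes, 40 tested), were described in the same way. With DSS against control 25 were higher and 3 were lower, against 21.5% and 19.5% of all genes tested. The median log2 fold change was 1.14 against 0.02 over all genes tested. With DSS + EA against DSS 26 were lower and 1 was higher, against 18.3% and 17.2% of all genes tested. The median was -1.44 against -0.02. With DSS + EA against control edgeR called 0, with a median of 0.04 against 0.00; 5 had an unadjusted p under 0.05 and DESeq2 called 2 (*Ptgs2*, higher, and *Ccn2*, lower). The 8 members tested had medians of 1.70, -1.37 and 0.14 in these comparisons. Some of the 40 genes, *Cebpb*, *Klf2* and *Plk3* among them, reached the minimum of the filter in DSS mice alone. The filter set the direction of such genes in the comparisons with DSS mice, and the calls and medians were not recounted without them.

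Among 20 other factors tested, 12 were higher with DSS (10 in DESeq2) and 2 were lower. *Nfil3*, a basic leucine zipper repressor, averaged 3.13 CPM in control, 28.2 in DSS and 2.70 in DSS + EA mice, with log2 fold changes of 3.16 (edgeR adjusted p = 0.000474) and then -3.36 (edgeR adjusted p = 0.00073). *Cebpd*, an acute phase factor, averaged 4.65, 44.2 and 5.96 CPM (log2 fold changes 3.23 and -2.88, edgeR adjusted p = 0.000686 and 0.00173). *Cebpb*, a relative of *Cebpd*, averaged 0.985, 16.7 and 1.87 CPM, and *Klf2*, a zinc finger factor of endothelium and leukocytes, averaged 1.11, 11.1 and 1.31 CPM. *Csrnp1* averaged 1.35, 17.1 and 3.73 CPM, and *Maff* 1.47, 8.72 and 2.15 CPM. All 6 were DEGs with DSS against control, and *Nfil3*, *Cebpd*, *Cebpb* and *Klf2* were also DEGs with DSS + EA against DSS. *Cebpb* and *Klf2* reached the minimum of the filter in DSS mice alone, so the filter set their direction. The factors called lower with DSS were *Hes1*, a Notch target, and *Id1*, a BMP target, each with a log2 fold change near -1.1 (-1.12, edgeR adjusted p = 0.0363, and -1.13, edgeR adjusted p = 0.0117). *Id1* was the factor called higher with DSS + EA against DSS (log2 fold change 0.87, edgeR adjusted p = 0.0393).

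Of 20 other products tested, 13 were higher with DSS, and 1, the antiproliferative gene *Btg2*, was lower (log2 fold change -0.71, edgeR adjusted p = 0.0244). *Thbs1*, a matricellular protein, averaged 11.6 CPM in control, 98.7 in DSS and 18.4 in DSS + EA mice (log2 fold changes 3.07 and -2.42, edgeR adjusted p = 0.0002 and 0.001). *Ptgs2*, the inducible cyclooxygenase, averaged 2.41, 36.2 and 10.6 CPM, and *Plk3*, a stress kinase, 0.904, 8.97 and 2.02 CPM. *Plk3* reached the minimum of the filter in DSS mice alone, so the filter set its direction. *Ccn2*, a matrix protein gene induced by mechanical stress and TGF-beta, averaged 15.3, 40.1 and 4.42 CPM, and its log2 fold change between DSS + EA and DSS was -3.17 (edgeR adjusted p = 0.00225). Its DSS + EA mean was thus below its control mean, at a log2 fold change of -1.77 that edgeR did not call.

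**Figure D4:**
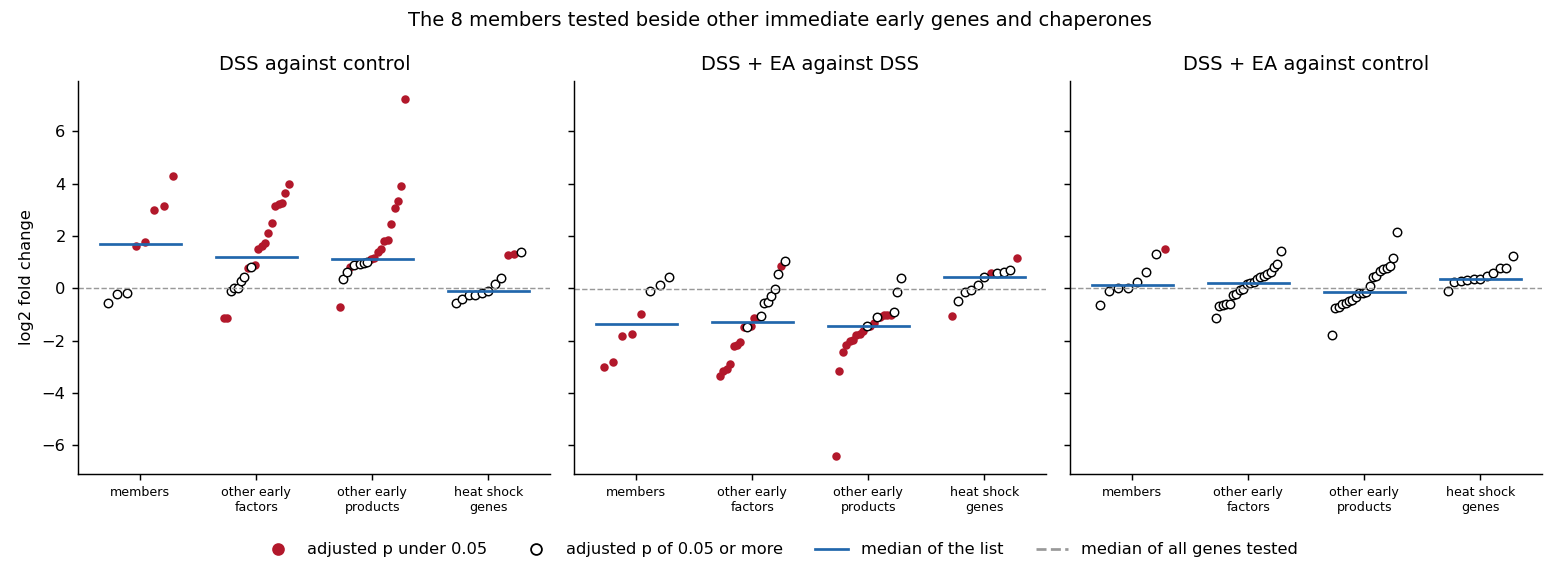
Log2 fold changes (y axis) of single genes in 4 lists (x axis; each point is 1 gene, ordered by value) in the 3 comparisons; filled points had an edgeR adjusted p under 0.05, blue lines are list medians and the dashed line is the median of all genes tested. Medians of the 2 lists of other immediate early genes lie at 1.20 and 1.14 with DSS against control, at -1.29 and -1.44 with DSS + EA against DSS, and near 0 with DSS + EA against control, while heat shock genes have medians of -0.10, 0.44 and 0.34.

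The phosphatases related to *Dusp1* were mostly scarce: 4 of 9 passed the filter. *Dusp2*, a phosphatase of immune cells, was the 1 called higher with DSS and the 1 called lower with DSS + EA against DSS. It had 14 to 42 counts in DSS mice, 4 to 6 in DSS + EA mice and at most 3 in control mice. *Dusp2* reached the minimum of the filter in DSS mice alone, so the filter set its direction. Of the relatives of *Zfp36*, *Zfp36l1* averaged 16.7, 47.8 and 14.9 CPM in control, DSS and DSS + EA mice (log2 fold changes 1.52 and -1.68, edgeR adjusted p = 0.00361 and 0.00321). *Zfp36l2* was called lower with DSS + EA against DSS (log2 fold change -2.01, edgeR adjusted p = 0.0162).

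Messenger RNAs known to be bound by tristetraprolin were listed as well (11 genes, 10 tested). *Ptgs2* and *Plk3* are also counted among the other products above. With DSS all 10 tested were higher, against 21.5% of all genes, and with DSS + EA against DSS 7 were lower, against 18.3%. Their summed level was 6.61 to 11.3 CPM in control mice, 1032 to 2775 CPM in DSS mice and 137 to 384 CPM in DSS + EA mice. *Csf3*, the gene of G-CSF, had 0 counts in each control mouse, 495 to 1255 in DSS mice and 5 to 8 in DSS + EA mice. *Cxcl1*, a neutrophil chemokine, averaged 0.391, 497 and 19.2 CPM, *Il6* 0.239, 39.8 and 2.12 CPM, and the monocyte chemokine *Ccl2* 1.63, 338 and 33.3 CPM. *Csf3*, *Il6* and *Plk3* reached the minimum of the filter in DSS mice alone, so the filter set their direction in the comparisons with DSS mice. With DSS + EA against control 6 of the 10 were called higher, against 3.00% of all genes, and *Zfp36* itself was not called.

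Genes upstream of the immediate early response (14 of 16 tested) moved both ways with DSS, 5 higher and 2 lower. The shares over all genes tested were 21.5% and 19.5%. *Elk3*, a partner of serum response factor, averaged 2.84 CPM in control, 19.8 in DSS and 5.24 in DSS + EA mice (log2 fold changes 2.76 and -1.91, edgeR adjusted p = 0.000347 and 0.00249). *Elk4*, *Mapk8*, *Mapk14* and *Egfr* were the others called higher, with log2 fold changes of 0.86 to 1.26, and DESeq2 called 4 of these 5, without *Mapk14*. *Map2k1*, which encodes MEK1, and *Mapk3*, which encodes ERK1, were lower with DSS (log2 fold changes -1.68 and -1.06, edgeR adjusted p = 9.61e-05 and 0.00158) and higher with DSS + EA against DSS (log2 fold changes 1.46 and 0.83, edgeR adjusted p = 0.000446 and 0.00704). With DSS + EA against DSS 2 of the 14 were higher and 3 were lower, against 17.2% and 18.3% of all genes tested. The 3 called lower were *Elk3*, *Elk4* and *Egfr*.

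Partners of the AP-1 and ATF proteins (10 tested) gave 5 higher and 2 lower with DSS, against 21.5% and 19.5% of all genes tested. *Jdp2*, a repressor that pairs with Jun, averaged 0.825, 10.2 and 1.12 CPM in control, DSS and DSS + EA mice, and *Batf*, an AP-1 factor of lymphocytes, 1.35, 8.73 and 4.95 CPM. *Batf3*, *Atf4* and *Atf6* were also higher in edgeR, and DESeq2 called 3 of the 5, without *Batf3* and *Atf6*. Since *Jdp2* and *Batf3* reached the minimum of the filter in DSS mice alone, the filter set their direction. *Batf2*, an interferon-induced factor, ran the other way at 6.94, 2.17 and 21.7 CPM, lower with DSS (log2 fold change -1.64, edgeR adjusted p = 0.00472) and higher with DSS + EA against DSS (log2 fold change 3.29, edgeR adjusted p = 0.000337). It was the 1 of the 10 called higher with DSS + EA against control (log2 fold change 1.65, edgeR adjusted p = 0.0151). *Ddit3*, the integrated stress response factor CHOP, was lower with DSS and higher with DSS + EA against DSS (log2 fold changes -0.94 and 1.04, edgeR adjusted p = 0.0098 and 0.00799). The symbol *Ddit3* stands on 2 entries of the counts, and only 1 of them was used.

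Genes that glucocorticoids induce (7 tested) were 5 higher and 0 lower with DSS: *Per1*, *Klf9*, *Tsc22d3*, *Sgk1* and *Zbtb16*. Of all genes tested, 21.5% were higher and 19.5% lower. The 0 lower also held at an unadjusted p under 0.05 and in DESeq2. *Per1*, a clock gene with a CREB-responsive promoter, averaged 1.60 CPM in control, 50.5 in DSS and 3.35 in DSS + EA mice. *Klf9* averaged 14.9, 54.4 and 6.24 CPM (log2 fold changes 1.87 and -3.13, edgeR adjusted p = 0.00188 and 0.00048). *Per1*, *Klf9*, *Tsc22d3* and *Zbtb16* were lower with DSS + EA against DSS, 4 of 7 against 18.3% of all genes. Since *Zbtb16* reached the minimum of the filter in DSS mice alone, the filter set its direction. Of 11 heat shock genes tested, *Dnajb1* and *Bag3* were higher with DSS, *Hsph1* and *Hspe1* were higher and *Bag3* lower with DSS + EA against DSS, and edgeR called 0 with DSS + EA against control (2 at an unadjusted p under 0.05 and 1 in DESeq2). Over all genes tested, 21.5% were higher with DSS, and 17.2% were higher and 18.3% lower with DSS + EA against DSS. The heat shock genes were named after their values were seen.

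Cell type markers moved with the groups too. They stand beside 21.5% of all genes tested that were higher with DSS and 19.5% that were lower. With DSS against control, 5 of 5 neutrophil markers tested, 5 of 6 macrophage, 6 of 6 fibroblast and 3 of 5 endothelial markers were higher, and 4 of 8 epithelial and 5 of 6 smooth muscle markers were lower. Neutrophil markers summed to 22.6 to 158 CPM in control mice, 4408 to 26118 CPM in DSS mice and 1175 to 1579 CPM in DSS + EA mice, and *Mpo* and *Elane* had no count in control mice. Fibroblast markers summed to 753 to 824, 4079 to 6796 and 1612 to 1703 CPM in the same order. Macrophage markers summed to 330 to 368, 873 to 2284 and 579 to 684 CPM, and endothelial markers to 26.1 to 33.8, 74.3 to 101 and 30.6 to 33.9 CPM. Smooth muscle markers summed to 2844 to 3526, 1136 to 2176 and 2210 to 2273 CPM. None of the 3 lymphocyte markers tested was called with DSS (1 at an unadjusted p under 0.05, lower, and 0 in DESeq2), and the list of 6 summed to 17.2 to 26.6, 11.5 to 24.1 and 24.7 to 57.1 CPM. DSS mouse 1 had the lowest neutrophil sum (4408 CPM) and the highest epithelial sum (3698 CPM) of the DSS mice. It was the lowest of its group in *Fos*, *Fosb*, *Jun*, *Junb* and *Dusp1*. The same mouse was the highest of its group in *Zfp36* and *Atf3* and lay between the other DSS mice in *Fosl1*, *Egr1* and *Ier3*. Of 8 acinar pancreas markers tested, 8 were higher with DSS + EA against DSS and 7 with DSS + EA against control. The shares over all genes were 17.2% and 3.00%. *Cela1* alone of the 8 reached the minimum of the filter outside DSS + EA mice, so the filter set the direction of the others. *Cpb1* and *Cel* had no count in control mice, and *Cpa1* and *Cel* had none in DSS mice. The part of these cells in the levels of the immediate early genes was not tested.

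Profiles over the 9 libraries were compared as log2 CPM centred on each gene's mean, by the root mean square difference. Among genes with a standard symbol, the 3 nearest *Fos* were *Cdc25b* at 0.14, *Emp2* at 0.14 and *Mid1ip1* at 0.15. The median over all 12565 genes and loci was 0.59. *Fos* itself departed from its own mean by 0.26. The nearest other member was *Atf3* at 0.44, in place 3366 of the order. For none of the 8 members was another member among the 20 nearest genes. With so few members among 12565 genes and loci, this says little on whether they vary together. The measure also keeps the size of the changes, so it sets apart genes that change by unlike amounts. *Egr1* and *Dusp1* were nearest members of each other at 0.69, in place 446 of the order from *Egr1* and place 250 of the order from *Dusp1*. This is a description over 9 libraries that share their groups, and carries no test.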

How the data were processed

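Total RNA of mouse colon was sequenced for the authors as Nanopore PCR-cDNA on a PromethION, in 9 libraries (control, DSS and DSS + EA, 3 mice each). The authors deposited a table of raw counts per gene. The build in the submitters' processing notes is mm10; aligner, counting program, annotation and use of strand are not given in the sources used here. Its 27733 lines gave 27719 genes and loci once 14 lines without values were left out, and no pair of libraries was identical.

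Counts were fitted with edgeR 4.0.16 in R 4.3.3 (TMM, filterByExpr, quasi-likelihood F test, group only, all 9 libraries). Calls were made at a Benjamini-Hochberg adjusted p under 0.05 over 12566 genes. The DEG thresholds are those the study states. Each SE is the log2 fold change over the square root of F, and the 95% intervals use the moderated degrees of freedom. DESeq2 1.42.0 was an alternative. The filter asked for at least 3.10 CPM in 3 libraries, which the 8 members tested met in all control mice. Some genes of the other lists met it in the mice of 1 group alone, which set their direction. The fit was tested on simulated data.

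Gene positions, exons and 3′ UTRs are those of GENCODE M21 and promoters those of RefSeq, both on GRCm38. The labels number 3 samples in each group, and p-values measure the spread between these mice. The limit given for a count of 0 covers counting error only, and the intervals of fold changes include the spread between mice.

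The members and gene lists were chosen with earlier results of these data known. Some genes stand in more than 1 list and are counted in each. *Ptgs2* and *Plk3* are other products and targets of tristetraprolin. *Sgk1* is an other product and a glucocorticoid gene, and *Srf* is an other factor and an upstream gene. Named genes are all members, the DEGs of each list (at most 4 per comparison and list with the smallest P), and calls of a list where there were 5 or fewer. The 3 profiles nearest *Fos* among genes with a standard symbol are named too. *Maff*, which is a DEG outside these limits, was added after its values were seen. A gene that this rule would name among the other products is not reported here.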

Additional observations from a re-analysis of the deposited data

How the results depend on the processing

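The 5 members called with DSS against control and their directions held under DESeq2, DESeq2 size factors, library totals, no filter, a mean of at least 20 counts, a fit of 2 groups only, a prior count of 2, and without each mouse in turn. *Fosl1* was a further call, making 6, with DESeq2, with no filter, without DSS mouse 3 and without DSS + EA mouse 1. It reached the minimum of the filter in 2 DSS mice and in no control or DSS + EA mouse. Where *Fosl1* passed with a mouse left out, it did so through the mice where it was high, so those calls add no support. The number called with DSS + EA against DSS was 3 to 6 when single mice were left out, the lowest without DSS + EA mouse 2 and the highest without DSS mouse 3, where *Fosl1* passed the filter and was called, and the number called with DSS + EA against control was 0 to 1, with 0 without control mouse 1. The latter was 2 with only the 2 groups fitted. Other immediate early genes called with DSS + EA against control were 2 with DESeq2, 1 with no filter, 5 with 2 groups only, and 0 to 2 when single mice were left out. Over all genes this comparison called 457, against 702 with DESeq2, 1149 with 2 groups only and 110 to 772 without single mice; the cause was not tested. Among the counts of *Fos*, *Fosb* and *Fosl1* alone, *Fosl1* held 1.36% in control, 8.85% in DSS and 2.76% in DSS + EA mice.

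Sign changes were limited to values that were not called. *Egr1* with DSS + EA against control was 0.00297 with DESeq2, 0.0382 with no filter, 0.00295 with 2 groups only and 0.000693 with a prior count of 2, and *Junb* was -0.0294 with a mean of at least 20 counts. Without single mice, *Egr1* ran from -0.27 to 0.19, *Junb* from -0.28 to 0.27 and *Fos* from -0.26 to 0.0346 in this comparison, and *Jun* from -0.81 to 0.35 and *Fos* from -0.0236 to 0.31 with DSS + EA against DSS.

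Same-numbered mice are different animals and their deviations correlated between -0.16 and 0.105, so the numbers do not pair them. With a replicate block the members called were 5, 5 and 1, as without it. Counts of 3 to 42 for *Fosl1* and 1 to 18 for *Fosb* in DSS mice limit what can be said of them.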
